A study of Homo sapiens with 6 samples.

Results

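The peaks of chromosome 2 came from chromatin immunoprecipitation and sequencing of V5-tagged TAF2 in HepG2 cells. They are all the peaks that the authors listed on chromosome 2 in the 3 V5 libraries, 164, 277 and 190 peaks in replicates 1, 2 and 3, or 631 of 6043 peaks in all. The members were thus selected on measured values, since a place enters a list only by passing the threshold of the authors' peak caller. The lowest deposited -log10 q of a chromosome 2 peak was 1.401, 1.48 and 1.44 in replicates 1, 2 and 3, and weaker places were not analysed here. Chromosome 2 was set against the peaks of the other 21 numbered chromosomes, 1372, 2200 and 1630 in replicates 1, 2 and 3.

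All libraries came from the line labelled HepG2-TAF2-V5, a HepG2 derivative that carries V5-tagged TAF2, and the tag is thus shared by both groups of the study. HepG2 is an established line from a human liver cancer. The peak lists belong to the immunoprecipitation with the V5 antibody (3 libraries). The other 3 libraries were controls, called input in their treatment label and titles and IgG in their library names, and no peak list of theirs was used here, so the values have no control background beside them. Whether each library had a culture of its own is not in the labels, so a p-value over libraries covers only the spread between these samples, which may be technical. The lists hold no read counts, so sequencing depth is unknown.

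TFIID is the general transcription factor complex that binds core promoters and helps to place RNA polymerase II at a start site, and TAF2 is the subunit that contacts DNA around the initiator. V5 is a short peptide tag that an antibody can pull down. In a peak list, fold is the authors' enrichment of a peak over the background of their caller, a linear ratio. It was used within a list only, and a fold percentile is the rank of a peak in its own list on a scale to 100. Peaks of any library that shared at least 1 bp were joined to a single region.

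Promoters of 22 protein-coding genes of chromosome 2 were overlapped by peaks of at least 2 libraries, among 1108 genes with a listed promoter. This overlap is not given for other chromosomes. Within 1000 bp of a listed start, 29 of the 1108 genes had peaks of at least 2 libraries. On the other numbered chromosomes 189 of 13993 genes with a listed start did. RefSeq (GRCh38.p14) promoter windows run from 250 bases before to 50 after a transcription start and so are 300 bases long, and several starts of a gene can be listed. The 7 printed here were chosen to show the strongest peaks (FAM117B and POLR1B), a start shared by neighbouring genes (HSPE1), windows covered over all their bases (SP5 and HNMT, as also POLR1B) and a liver and a cytokine gene described further on (FABP1 and CCL20). Capitals mark the bases that peaks of at least 2 libraries covered, and each sequence reads 5′ to 3′ on the strand of its gene. The windows are FAM117B at chr2:202634719-202635018 (plus strand), POLR1B at chr2:112542215-112542514 (plus strand), HSPE1 at chr2:197500129-197500428 (plus strand), SP5 at chr2:170715087-170715386 (plus strand), HNMT at chr2:137964223-137964522 (plus strand), CCL20 at chr2:227813592-227813891 (plus strand) and FABP1 at chr2:88128013-88128312 (minus strand).
FAM117B: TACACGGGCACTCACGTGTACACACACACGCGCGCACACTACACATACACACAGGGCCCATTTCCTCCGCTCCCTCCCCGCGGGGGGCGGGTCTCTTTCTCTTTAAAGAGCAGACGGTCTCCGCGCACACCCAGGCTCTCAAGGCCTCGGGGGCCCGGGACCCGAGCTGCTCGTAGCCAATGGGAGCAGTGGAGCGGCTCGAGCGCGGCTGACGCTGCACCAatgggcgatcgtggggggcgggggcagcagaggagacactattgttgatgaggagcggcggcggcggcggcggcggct
POLR1B: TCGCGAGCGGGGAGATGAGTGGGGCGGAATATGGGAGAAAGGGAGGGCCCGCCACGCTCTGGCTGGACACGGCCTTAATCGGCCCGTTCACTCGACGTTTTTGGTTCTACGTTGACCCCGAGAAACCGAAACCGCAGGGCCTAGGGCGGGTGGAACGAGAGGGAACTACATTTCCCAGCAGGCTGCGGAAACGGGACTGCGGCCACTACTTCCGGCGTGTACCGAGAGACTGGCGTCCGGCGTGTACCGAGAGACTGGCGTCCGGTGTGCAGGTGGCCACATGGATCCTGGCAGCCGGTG
HSPE1: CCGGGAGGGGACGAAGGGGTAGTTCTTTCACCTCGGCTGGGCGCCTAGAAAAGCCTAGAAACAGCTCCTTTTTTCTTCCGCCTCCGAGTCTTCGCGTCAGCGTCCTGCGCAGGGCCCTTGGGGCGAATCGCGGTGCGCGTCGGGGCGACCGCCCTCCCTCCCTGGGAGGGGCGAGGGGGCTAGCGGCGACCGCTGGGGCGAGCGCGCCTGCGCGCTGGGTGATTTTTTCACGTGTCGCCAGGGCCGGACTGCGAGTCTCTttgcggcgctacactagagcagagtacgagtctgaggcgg
SP5: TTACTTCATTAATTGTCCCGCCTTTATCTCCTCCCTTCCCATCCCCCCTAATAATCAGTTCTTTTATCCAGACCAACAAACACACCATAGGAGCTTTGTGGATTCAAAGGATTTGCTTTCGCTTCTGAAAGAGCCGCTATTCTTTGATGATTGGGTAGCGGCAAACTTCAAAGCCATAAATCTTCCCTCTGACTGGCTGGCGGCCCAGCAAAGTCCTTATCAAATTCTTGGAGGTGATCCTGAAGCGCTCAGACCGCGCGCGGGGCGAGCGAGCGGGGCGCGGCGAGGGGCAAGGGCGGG
HNMT: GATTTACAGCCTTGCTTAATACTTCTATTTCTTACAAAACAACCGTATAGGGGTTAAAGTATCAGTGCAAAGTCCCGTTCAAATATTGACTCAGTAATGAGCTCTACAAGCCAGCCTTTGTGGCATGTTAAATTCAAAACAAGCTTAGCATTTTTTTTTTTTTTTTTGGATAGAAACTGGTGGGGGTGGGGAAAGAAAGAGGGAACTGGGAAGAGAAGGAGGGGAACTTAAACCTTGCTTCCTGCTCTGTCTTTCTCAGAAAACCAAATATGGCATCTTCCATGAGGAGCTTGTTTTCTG
CCL20: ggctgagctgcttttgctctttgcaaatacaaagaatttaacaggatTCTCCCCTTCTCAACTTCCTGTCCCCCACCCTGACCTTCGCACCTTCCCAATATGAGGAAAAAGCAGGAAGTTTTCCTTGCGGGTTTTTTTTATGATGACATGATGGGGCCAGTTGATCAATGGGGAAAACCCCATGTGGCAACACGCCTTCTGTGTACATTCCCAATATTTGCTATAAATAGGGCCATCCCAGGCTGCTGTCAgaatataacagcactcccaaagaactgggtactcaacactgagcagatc
FABP1: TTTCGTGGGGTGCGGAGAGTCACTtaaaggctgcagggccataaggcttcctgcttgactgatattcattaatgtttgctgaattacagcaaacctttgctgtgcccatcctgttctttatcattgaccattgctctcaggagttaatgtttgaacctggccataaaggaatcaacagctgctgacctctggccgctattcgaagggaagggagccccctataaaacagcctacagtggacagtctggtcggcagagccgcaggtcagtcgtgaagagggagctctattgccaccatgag

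In these windows 4 short motifs were searched on both strands: TATAAA (the TATA box), CCAAT (the CCAAT box), GGGCGG (the GC box) and CACGTG (an E box). Each motif was counted on its own, so matches of different motifs may share bases. TATAAA was found in 2 of the 22 distinct peak-covered windows of chromosome 2 (9.09%), against 9.50% of the 22078 windows in the promoter table. Those windows belonged to CCL20, where it began 29 bases before the start and inside the covered bases, and to FABP1, where it began 31 bases before the start and outside them. GGGCGG was in 19 of the 22 windows (86.4%, against 56.3% of all windows), CCAAT in 11 (50%, against 34.7%) and CACGTG in 5 (22.7%, against 8.32%). The covered windows had a median of 70% G and C, against 63% for all promoter windows of chromosome 2. The windows of HSPE1 and HSPD1 overlap, so that 1 CACGTG was counted in both, as do those of TTC7A and MCFD2. All these counts are over whole windows, whether or not peaks covered the match. The CACGTG of WDR43 and that of MCFD2 lay outside the covered bases. These matches describe letters and were not tested. At FAM117B the CACGTG began 238 bases before the start, and the peak summits lay 241, 239 and 239 bases before it in replicates 1, 2 and 3. At POLR1B the summits lay 20, 35 and 20 bases before its second listed start.

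Chromosome 2 held more peaks than any other numbered chromosome in each of the 3 libraries. It held 10.7, 11.2 and 10.4% of the peaks on numbered chromosomes in replicates 1, 2 and 3 (mean 10.8% ± 0.38, SD, n = 3), while it makes up 8.43% of their annotated span and 6.56% of their protein-coding genes (1254 of 19126). Per length it stood lower in the order. It had 6.77, 11.4 and 7.85 peaks per 10 Mb in replicates 1, 2 and 3, against medians of 5.10, 8.42 and 5.99 over the other numbered chromosomes, and ranked 6th, 5th and 6th among the 22. The highest other value was 14.3, 22.6 and 17.9 peaks per 10 Mb, on chromosome 20 in each library. Per 100 protein-coding genes chromosome 2 ranked 2nd in each library, with 13.1, 22.1 and 15.2 peaks, against medians of 7.93, 12.6 and 9.38. These counts chose the chromosome and are a description with no test. DNA copy number was not measured in these files, so its part in the counts was not tested.

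**Figure D1:**
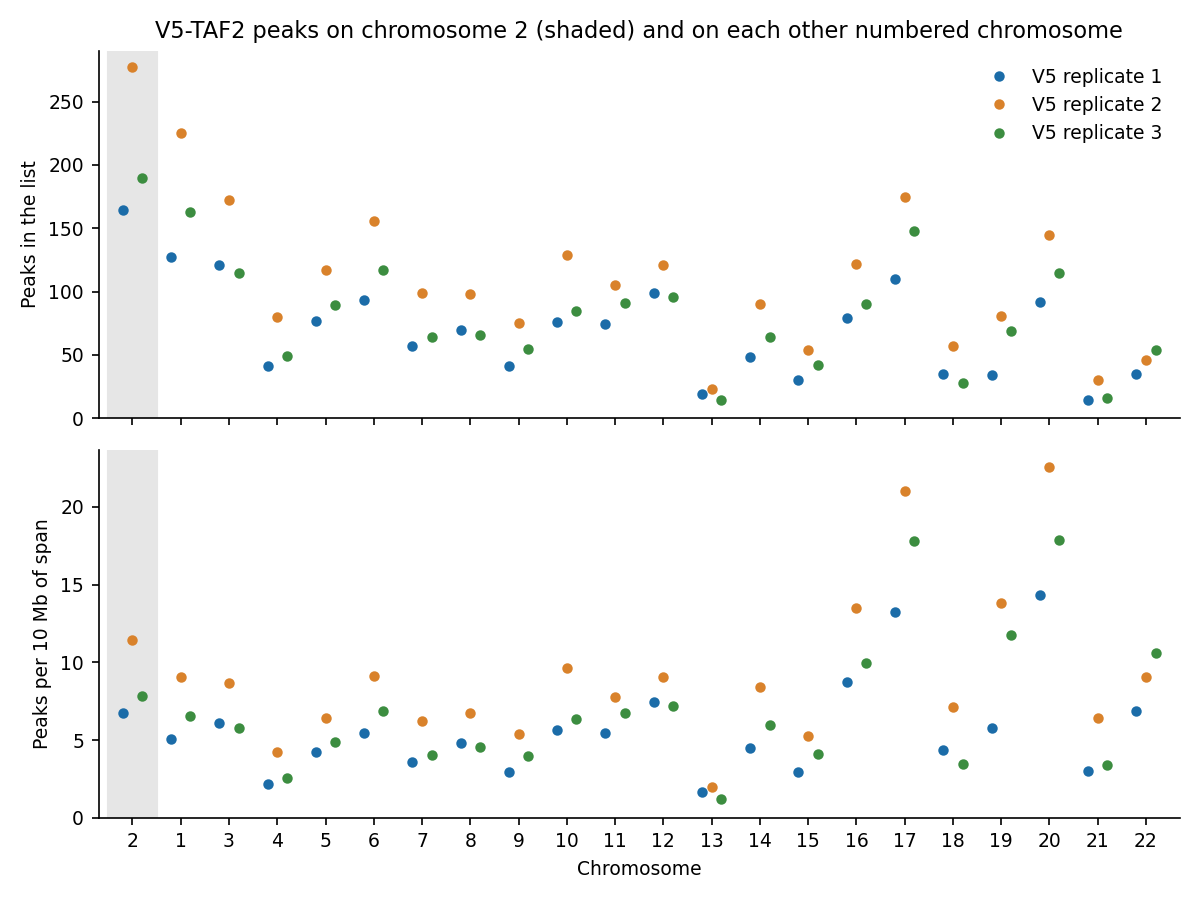
Peaks of each V5 library on chromosome 2 (shaded, at the left) and on the other numbered chromosomes, as a count in the upper panel and per 10 Mb of annotated span in the lower panel, with a point for each library. Chromosome 2 has the highest count in each library (164, 277 and 190) but lies below chromosomes 16, 17, 19, 20 and 22 per length in at least 2 libraries.

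Joined across libraries, the 631 peaks made 389 regions. Peaks of 3 libraries met in 68 of them, of 2 libraries in 78 and of 1 library in 243. The 146 regions met in more than 1 library, called reproducible here, were 37.5% of the regions (95% Clopper-Pearson interval 32.7 to 42.6%, counting error only), against a background of 36.2% on the other numbered chromosomes (34.5 to 37.8%). Regions with peaks of 3 libraries were 17.5%, against 16.4%. Both shares lie near their background. Of the regions of 1 library, replicate 2 supplied 134, replicate 3 supplied 63 and replicate 1 supplied 46. These were 34.4, 16.2 and 11.8% of all chromosome 2 regions, near the 32.3, 18.6 and 13.0% on the other numbered chromosomes. The order is also that of the lengths of the lists. Counted as peaks, 72.0, 51.6 and 66.8% of those on chromosome 2 fell in reproducible regions in replicates 1, 2 and 3, against 68.9, 51.5 and 62.5% of the others. The mean difference was 2.51 percentage points ± 2.21 (SD, n = 3), higher in 3 of 3 libraries (exact two-sided sign-flip permutation test over libraries, p = 0.25, the smallest that 3 libraries allow).

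Peaks of reproducible chromosome 2 regions ranked above those of 1 library alone in every library. A reproducible region needs a peak above the caller's threshold in another library, so the way the groups were made favours this direction. The other chromosomes were not compared in this way. The median fold percentile of chromosome 2 peaks in reproducible regions was 50.5, 65.4 and 55.5 in replicates 1, 2 and 3. For the chromosome 2 peaks of 1 library it was 30.7, 35.5 and 39.2. The mean difference was 22.1 points ± 7.09 (SD, n = 3, higher in 3 of 3, exact sign-flip permutation p = 0.25). Over the regions that a pair of libraries shared, log2 fold correlated with r = 0.68, 0.79 and 0.68 (82 to 103 regions, replicates 1 and 2, 1 and 3, and 2 and 3), and without the 2 strongest regions with r = 0.50, 0.62 and 0.51. Regions within a chromosome share their libraries, so these are descriptions across regions.

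A single place led the chromosome. The region that ended at the start of FAM117B (chr2:202634389-202634969) had a fold of 25.2, 26.7 and 30.8 in replicates 1, 2 and 3. It was the highest of all peaks in the lists of replicates 1 and 3 and ranked 3rd in that of replicate 2. Its mean fold was 27.6 ± 2.89 (SD, n = 3), and its summits fell within 2 bp of each other. The next region (chr2:112542200-112542713) lay over the second listed start of POLR1B, a large subunit of RNA polymerase I. The 3′ end of TTL, a tubulin tyrosine ligase, was less than 1000 bp away. Its fold was 18.5, 19.7 and 18.1, the 4th highest in each list, and its summits lay within 15 bp of each other. In both places each library stood above all its other chromosome 2 regions.

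The 15 strongest regions were chosen among those with peaks of 3 libraries, and the other 13 had folds between 6.07 and 15.4. The region inside EML4, which encodes a microtubule-binding protein, had a fold of 9.23, 9.08 and 9.88 in replicates 1, 2 and 3. The region inside NFE2L2, which encodes NRF2, the transcription factor of the oxidative stress response, had 10.7, 8.78 and 8.76. Each of these was a wide block of several joined peaks, 5024 bp over EML4 and 3731 bp over NFE2L2. NOP58, a core protein of box C/D small nucleolar ribonucleoproteins, carried a block of 4760 bp with folds of 7.30, 7.85 and 7.26, and ROCK2 one of 4595 bp with 6.86, 8.16 and 7.26. These 4 were the only chromosome 2 regions wider than 2000 bp, against 26 of 3297 regions on the other numbered chromosomes.

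Several strong regions lay outside protein-coding genes. The region at LOC124905976 (chr2:15781818-15782497) lay 150717 bp from DDX1, an RNA helicase gene, and 158053 bp from the start of MYCN, and had a fold of 7.34, 13.4 and 7.30. Replicate 2 stood apart there, while replicates 1 and 3 nearly coincided. The region inside LOC105373514 lay 91391 bp from RFX8 and had a fold of 8.29, 8.03 and 7.54. The region inside LINC00607, 145045 bp from MREG, had 7.13, 8.13 and 7.26, and a further one inside ID2-AS1, 2751 bp before ID2, had 6.27, 9.08 and 9.17. All 4 were called in every library, as the choice of the strongest regions required.

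The remaining strong regions lay inside genes. HS1BP3 had a fold of 6.90, 8.70 and 7.37 in replicates 1, 2 and 3. HSPD1, the mitochondrial chaperonin HSP60, had 8.12, 6.95 and 8.21. The UGT1A locus, whose nested first exons encode UDP-glucuronosyltransferases that conjugate bilirubin and drugs in the liver, had 6.58, 8.95 and 7.68 at chr2:233756794-233757042, 3228 bp before the start of UGT1A1. EVA1A, an autophagy-related gene, had 2 regions, one with 6.99, 6.84 and 8.81 and one with 6.07, 15.4 and 6.67, the second again high in replicate 2 alone. Of the 15 regions, 7 lay on the p arm and 8 on the q arm, and in 7 the 3 summits fell within 50 bp.

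**Figure D2:**
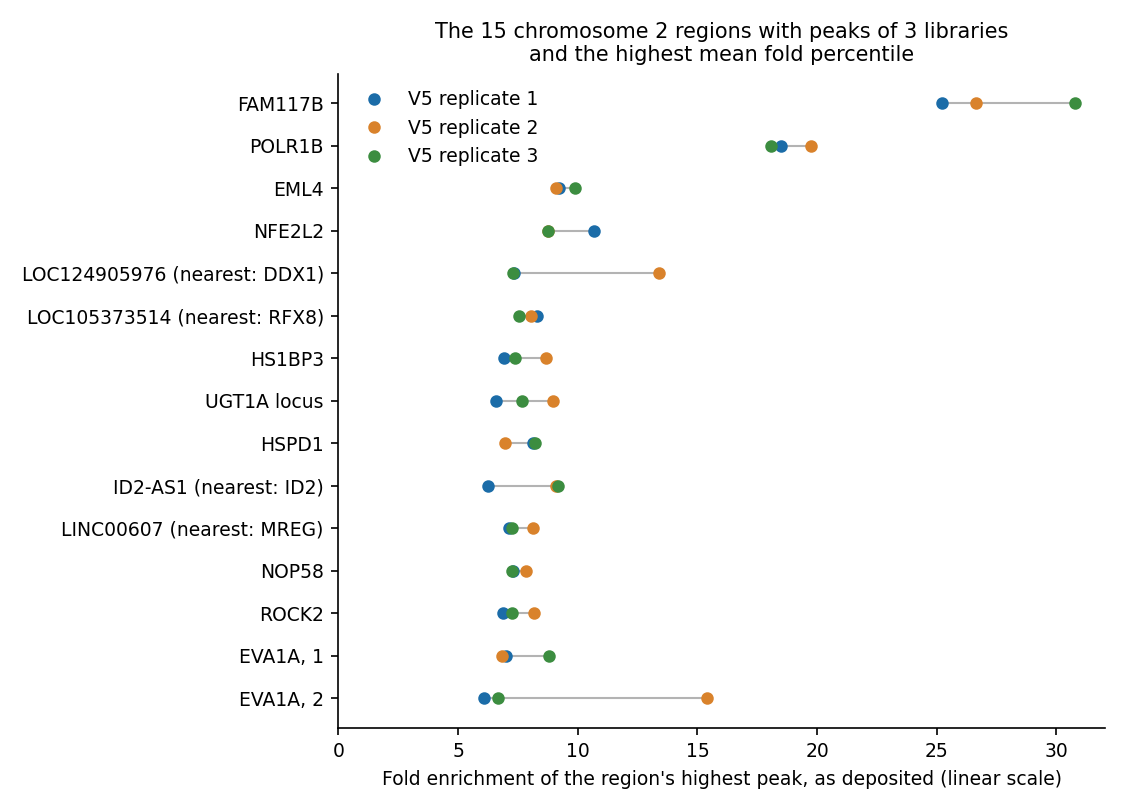
Fold enrichment, as deposited, of the highest peak in each V5 library for the 15 chromosome 2 regions with peaks of 3 libraries and the highest mean fold percentile, with 1 point per library and a line over their range. FAM117B (25.2 to 30.8) and POLR1B (18.1 to 19.7) stand above the rest, and LOC124905976 and the second EVA1A region are high in replicate 2 alone.

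The strongest regions of 1 library alone had folds within the range of these regions. In replicate 1 these were inside ANXA4, an annexin gene (7.89), and inside EML4 (6.47), in replicate 2 inside SPRED2, an inhibitor of the MAP kinase pathway (9.23), and inside LINC00607 (8.43), and in replicate 3 between genes 17301 bp from AGFG1 (7.57) and inside PTMA, the prothymosin gene (7.503).

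Peaks were not spread evenly along the chromosome. In 10 Mb bins, the bin from 40 to 50 Mb held 31, 39 and 25 peaks in replicates 1, 2 and 3, the most in each, and 57 of the 389 regions (14.7%), 24 of them reproducible, beside 49 of the 1254 protein-coding genes. The bin from 170 to 180 Mb, which holds NFE2L2 and the HOXD cluster, came next by regions (28), with 10, 20 and 19 peaks. At the other end, the 30 Mb from 140 to 170 Mb held 2, 6 and 3 peaks in 94 protein-coding genes, 9 regions in all, 2 of them reproducible and none of 3 libraries. The longest stretch with no peak in any library ran over 12.3 Mb, chr2:145800795-158127395, and held 30 protein-coding genes. Bin counts rose and fell together among libraries (r = 0.88, 0.85 and 0.94 for replicates 1 and 2, 1 and 3, and 2 and 3 over 25 bins, and 0.76, 0.75 and 0.90 without the bin from 40 to 50 Mb). With the number of protein-coding genes per bin they went less closely (r = 0.18, 0.39 and 0.35 in replicates 1, 2 and 3, and 0.32, 0.55 and 0.46 without that bin). The bins share a chromosome and a library, so these values are descriptions.

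**Figure D3:**
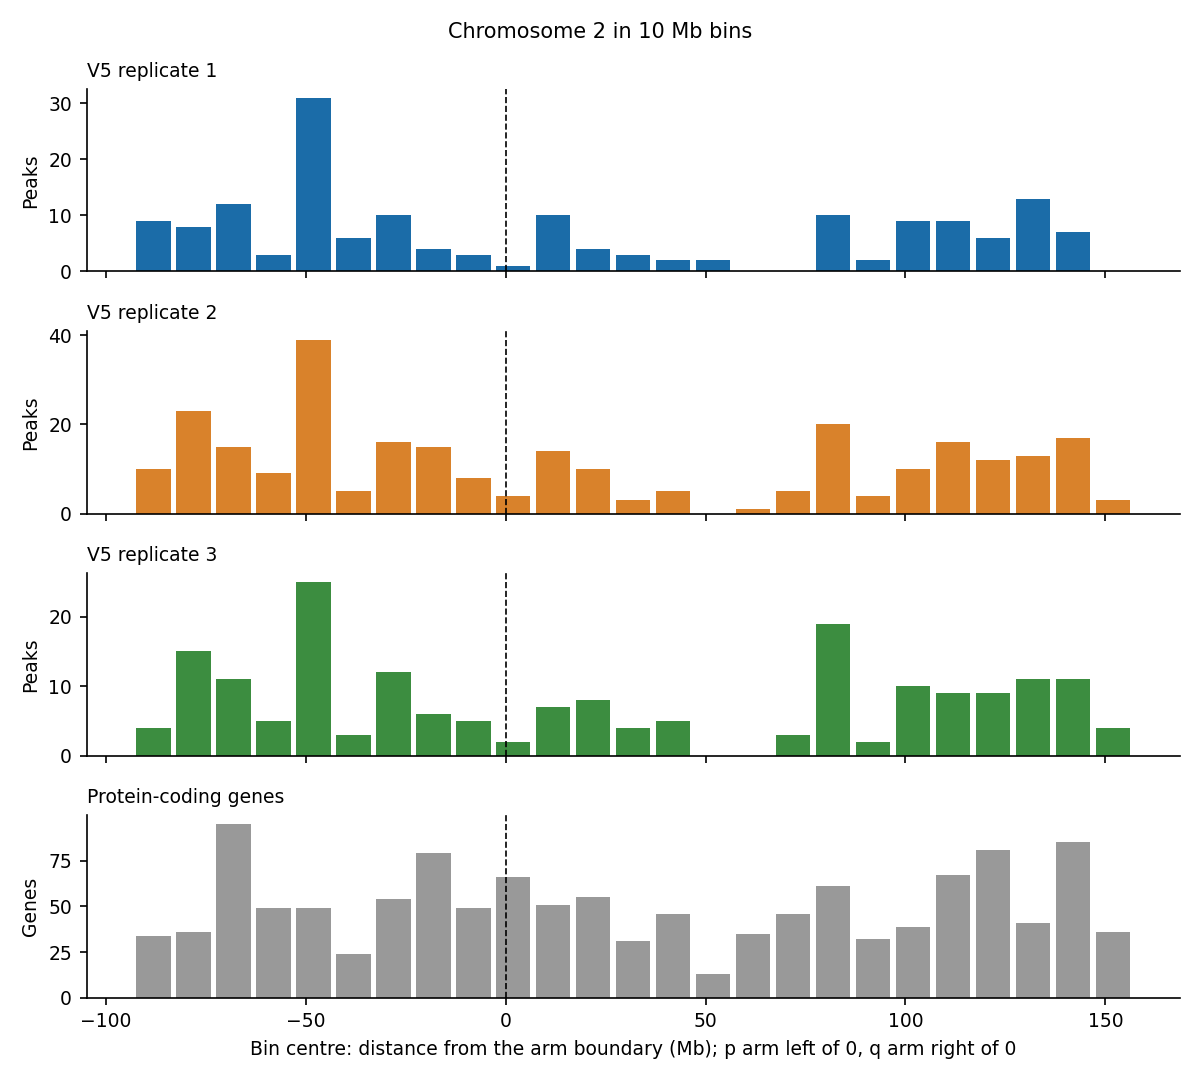
Peaks of each V5 library (upper 3 panels) and protein-coding genes (lowest panel) in 10 Mb bins of chromosome 2, against the distance of the bin's centre from the arm boundary, with the p arm at negative and the q arm at positive distances. The bin at -48.1 Mb is the highest in each library (31, 39 and 25 peaks), and few peaks lie between about 50 and 70 Mb on the q-arm side.

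The p arm was denser than the q arm. With the boundary set at 93.1 Mb, the middle of the longest gene-free stretch near the centromere, the p arm held 86, 140 and 86 peaks in replicates 1, 2 and 3, and the q arm 78, 137 and 104. Per 10 Mb this made 9.24, 15.04 and 9.24 on the p arm, against 5.23, 9.19 and 6.98 on the q arm. The ratio was 1.58 ± 0.227 (SD, n = 3), and the difference of 4.04 peaks per 10 Mb ± 1.79 was positive in 3 of 3 libraries (exact sign-flip permutation p = 0.25, the smallest possible). The ratio was 1.28 without the EML4 locus described further on. The shares of reproducible regions were 36.4% on the p arm and 38.7% on the q arm. Peaks within 1000 bp of a protein-coding gene end made up 15.1, 11.4 and 20.9% of those on the p arm, against 28.2, 13.9 and 33.7% on the q arm, a difference of -9.42 points ± 6.05 that was negative in 3 of 3 libraries (exact sign-flip permutation p = 0.25).

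Peaks bunched most in 9 places. Dense cluster here means that a library had at least 5 peaks inside 100 kb. Those at EML4, at NFE2L2 and HNRNPA3, and at SF3B1, HSPD1 and HSPE1 were met in 3 libraries, those at ID2, at ROCK2 and PPIAP60, and at NOP58 in 2, and those at APOB, WDR43 and ACSL3 in 1. The EML4 cluster (chr2:42092391-42196113) held 18, 25 and 14 peaks in replicates 1, 2 and 3, which was 10.98, 9.03 and 7.37% of the chromosome's peaks and 15.8, 13.0 and 12.6% of the bases they covered. Of its 32 regions, 24 overlapped the first 26.8 kb of the gene and 8 the 77.0 kb before it, and 14 were reproducible. HNRNPA3, an RNA-binding protein of the hnRNP family, and NFE2L2 had 6, 10 and 10 peaks in their cluster, with a highest fold of 10.7, 8.78 and 8.76. HSPD1 and HSPE1, the mitochondrial chaperonin and its co-chaperonin, are transcribed away from each other from starts 105 bp apart, and with SF3B1, a subunit of the U2 snRNP of the spliceosome, their cluster had 8, 7 and 9 peaks.

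**Figure D4:**
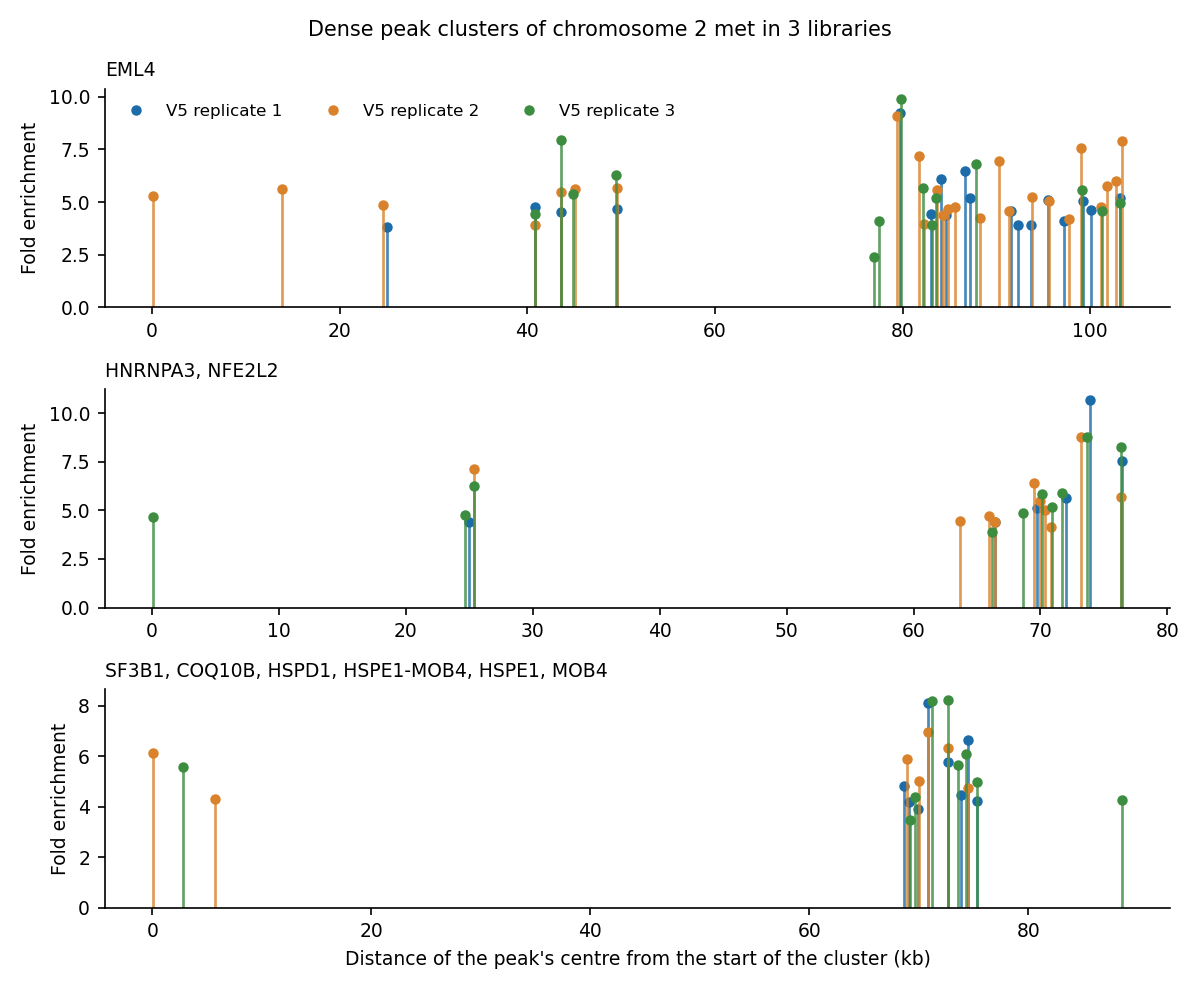
Fold enrichment of every peak in the 3 dense clusters of chromosome 2 that were met in 3 libraries, against the distance of the peak's centre from the start of the cluster, with a stem per peak and a colour per V5 library. In the EML4 cluster most peaks lie beyond 77.0 kb, where the gene begins, and the highest peaks of the 3 libraries (9.23, 9.08 and 9.88) stand together there.

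Dense clusters took 28.7, 25.3 and 24.7% of chromosome 2 peaks in replicates 1, 2 and 3, against 21.1, 19.8 and 20.6% of the peaks of the other numbered chromosomes. The difference was 5.74 percentage points ± 1.72 (SD, n = 3), higher in 3 of 3 libraries (exact sign-flip permutation p = 0.25, the smallest possible). Replicate 1 turned negative among peaks with a -log10 q of at least 3 (-1.21) or 5 (-0.535) or a fold of at least 5 (-3.79). Without the EML4 locus the mean difference was -1.65. By this share chromosome 2 ranked 7th, 8th and 5th among the 22 in replicates 1, 2 and 3. Chromosome 20 (40.2, 40.7 and 32.2%) and chromosome 3 (38.8, 35.5 and 40.9%) stood above it in each library. Regions in the clusters were reproducible in 53.4% of cases (47 of 88) and those outside in 32.9% (99 of 301), and neighbouring regions of a cluster are not independent of each other. A region counted as in a cluster when a peak of any library in it did. Regions of more libraries thus had more chances to be counted there, so the way the groups were made favours this direction. The regions in clusters were also wider (median 283.5 bp, against 224 bp outside), and the part of width in this difference was not tested. Clusters of the other chromosomes were not split in this way.

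By fold, width and share at gene ends, chromosome 2 peaks were much like the others. Median fold was 4.81, 5.25 and 5.01 in replicates 1, 2 and 3, against 5.07, 5.25 and 5.06, and the median fold percentile differed by -3.40 points ± 4.41 (43.3, 50.3 and 48.9, against 51.7, 50.3 and 50.7, exact sign-flip permutation p = 0.50). Ranked by -log10 q the difference was 2.26 points. Median width was 226, 229 and 224 bp, against 219, 222 and 223 bp, wider by 4.83 bp ± 3.79 in 3 of 3 libraries (exact sign-flip permutation p = 0.25). With a fold of at least 5 it was 20.5 bp, in 2 of 3 libraries. Peaks within 1000 bp of a protein-coding gene end made up 21.3, 12.6 and 27.9%, against 15.9, 17.0 and 24.0%, so replicate 2 went the other way from replicates 1 and 3 (mean difference 1.63 percentage points ± 5.29, exact sign-flip permutation p = 0.75). Without replicate 1 it was -0.282. Peaks within 1000 bp of a listed transcription start made up 19.5, 11.2 and 29.5%, against 15.9, 15.4 and 22.8% on the other chromosomes with listed starts (mean difference 2.03 points ± 5.64, exact sign-flip permutation p = 0.75), where 88.4% of genes on chromosome 2 and 81.6% elsewhere had a listed start.

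**Figure D5:**
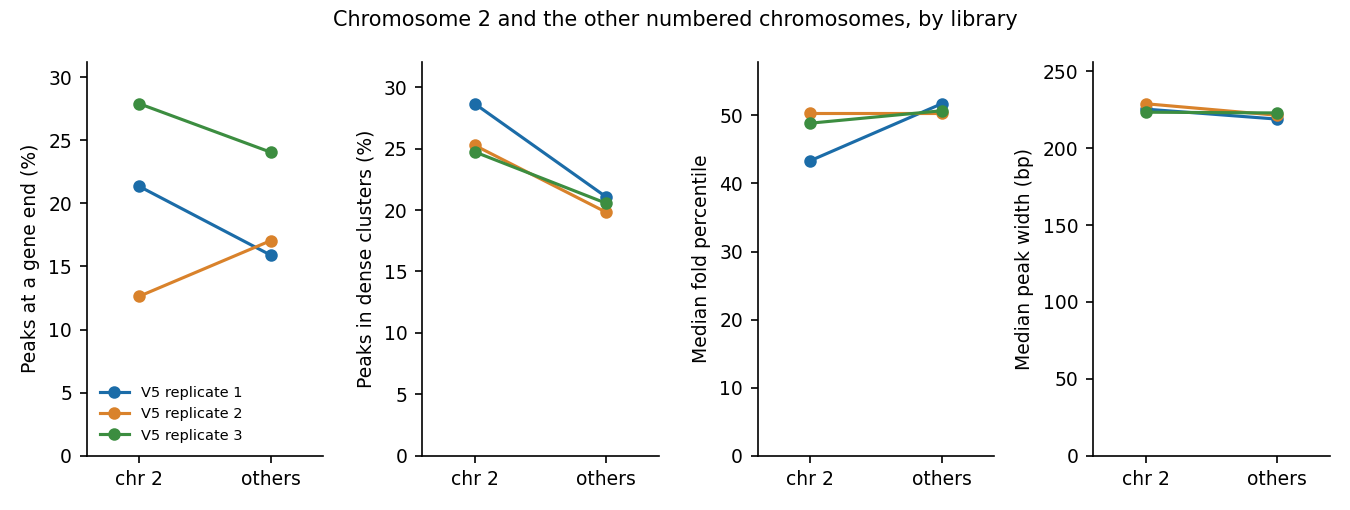
For each V5 library, chromosome 2 (left points) and the other numbered chromosomes pooled (right points), joined by a line, for the share of peaks within 1000 bp of a protein-coding gene end, the share in dense clusters, the median fold percentile and the median width. The gene-end share is higher on chromosome 2 in replicates 1 and 3 and lower in replicate 2, and the dense share is higher in all 3 (28.7, 25.3 and 24.7%).

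Within chromosome 2, gene-end peaks had lower fold percentiles than the rest. Their median fold percentile was 31.0, 33.3 and 48.5 in replicates 1, 2 and 3, against 45.6, 50.6 and 50.5 for the other chromosome 2 peaks. The difference of -11.3 points ± 8.15 (SD, n = 3) was negative in 3 of 3 libraries (exact sign-flip permutation p = 0.25), but small in replicate 3, and it was 5.14 among peaks with a fold of at least 5, -1.83 among those with a -log10 q of at least 3 and -1.68 when ranked by -log10 q. For peaks within 1000 bp of a listed start, against the other chromosome 2 peaks, the difference was 2.80, -9.65 and -12.8 points. Replicate 1 thus went the other way (mean -6.56 ± 8.26, exact sign-flip permutation p = 0.50). By place, 29 of the 146 reproducible regions had their summit at a protein-coding gene end (19.9%, 95% Clopper-Pearson interval 13.7 to 27.3%), against 172 of 1192 elsewhere (14.4%, 12.5 to 16.6%). Another 61 lay inside a protein-coding gene (41.8%, against 45.0%), 21 inside another gene (14.4%, against 8.22%), 10 at the end of another gene (6.85%, against 9.31%) and 25 between genes (17.1%, against 23.1%). Among regions of 1 library the order at protein-coding gene ends was the opposite, with 15.6% on chromosome 2 and 21.9% elsewhere. Of all regions, 19.5% on chromosome 2 and 20.9% elsewhere held a peak within 1000 bp of such an end. Around starts, 49 of the 146 reproducible regions lay within 5000 bp of a listed start, 24 before it and 25 after it, beside 81 of the 243 regions of 1 library. Of the 25 reproducible regions within 1000 bp, 19 had their summit before the start and 6 after it. The 41 regions of 1 library within 1000 bp leaned the same way, with 27 before and 14 after.

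Protein-coding genes with an end peak in at least 2 libraries numbered 32 of 1254 (2.55%, 95% Clopper-Pearson interval 1.75 to 3.58%), against a background of 1.28% on the other numbered chromosomes (229 of 17872), and 17 had one in 3 libraries (1.36%, against 0.532%). Chromosome 2 ranked first among the 22 by this share, ahead of chromosomes 17 (2.40%) and 14 (2.31%). It also held more peaks per gene than most, as given above, and the part of that in this share was not tested. A peak counts for every gene whose end it meets, so neighbours such as POLR1B and TTL count with the same peak. Of the genes over 4000 bp with a known strand, 21 had these peaks at the 5′ end only, 4 at the 3′ end only (LBX2, TTL, CTDSP1 and MOGAT1) and 0 at both, counting peaks of at least 2 libraries. On the other numbered chromosomes these counts were 145, 17 and 3. LBX2 also had a 5′ peak in 1 library.

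Besides FAM117B, POLR1B and TTL, the highest folds within 1000 bp of a gene end were counted for EML4 (9.23, 9.08 and 9.88 in replicates 1, 2 and 3), NOP58 (6.58, 7.22 and 7.26) and NFE2L2 (7.52, 5.69 and 8.24). At EML4 only the edge of the 5024 bp block came within 1000 bp of the start at 42169353, and its summits lay deeper in the gene, at 42173057, 42172365 and 42172053. The peak over the EML4 start itself had a fold of 2.39, in replicate 3 alone. The block of NOP58 likewise reached its gene end with its edge, and its highest summits lay deeper in the gene. Separate peaks over the NOP58 end itself had folds of 3.65 and 5.74 in replicates 2 and 3. HSPD1, HSPE1 and the read-through gene HSPE1-MOB4 shared peaks of 5.78, 6.34 and 8.24. Their summits lay 486, 384 and 441 bp before the HSPE1 start and thus inside HSPD1. HSPD1 has another listed start, at 197499840. The summits lay before that start, inside its promoter window and outside that of HSPE1, and it was the nearest listed start of these genes. The peaks also covered bases of the HSPE1 window, so they cannot be assigned to 1 of these genes. ID2, an inhibitor of basic helix-loop-helix factors, had 4.88, 7.30 and 5.87 at its start, and a region near its other end had 6.30 and 4.45 in replicates 1 and 2. SP5, a zinc finger factor and a target of Wnt signalling, had 6.03, 5.24 and 6.53. These genes had an end peak in every library. FABP1, the liver fatty acid binding protein, had none in replicate 1 and 6.23 and 5.99 in replicates 2 and 3. IRS1, an adaptor of the insulin receptor, and its neighbour RHBDD1 shared a peak of 5.46 and 6.67 in replicates 1 and 2. MOGAT1, a monoacylglycerol acyltransferase, had 7.06 and 5.20 in replicates 2 and 3 at its 3′ end, and METTL21A, a protein lysine methyltransferase, 4.82 and 6.41 in replicates 1 and 3. HNMT, the histamine methyltransferase whose promoter window was covered over all its 300 bases, had 5.80, 6.30 and 4.55.

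Counted over the whole gene, 81 of the 1254 protein-coding genes of chromosome 2 (6.46%) had a peak over them or within 1000 bp in at least 2 libraries, against 3.65% elsewhere. A peak counts for every gene it meets. The nested UGT1A genes thus each count with the same regions, and neighbours such as HSPD1 and HSPE1 share regions, which raises the 6.46%. The same rule held elsewhere. Gene lists of chromosome 2 are read against the 6.46%, and as longer genes can hold more peaks, some median lengths are given beside them (39.2 kb for all genes of the chromosome). Values of listed genes are the highest fold over the gene or within 1000 bp in each library, which may come from different regions of a gene. Of 23 liver and hepatocyte genes (median 33.0 kb), 6 had such peaks. APOB, the protein of very low density lipoproteins, had a region at its annotated end at chr2:21044041-21044283 with folds of 3.93, 5.03 and 4.09 in replicates 1, 2 and 3, and 2 stronger regions beyond it with 4.76, 7.37 and 5.60 and with 6.32, 5.67 and 6.95. UGT1A6 and UGT1A9 shared the UGT1A region, which lies in several nested genes at once. TFPI, an inhibitor of coagulation, had 5.72 and 7.87 in replicates 1 and 2, and FN1, fibronectin, 4.88 and 5.398 in replicates 1 and 3. CPS1, the first enzyme of the urea cycle, had a peak in replicate 2 alone (4.59). The sixth was FABP1. AGXT had a peak in 1 library and the other 15 genes of the list had none, among them KHK, GCKR, PROC, ABCB11 and UGT1A1. Without expression values, a peak or its absence names no cell type.

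Of 19 RNA splicing and processing genes, 5 had peaks in at least 2 libraries: NOP58, WDR43 (a ribosome biogenesis factor, 5.31, 6.76 and 5.37 in replicates 1, 2 and 3), HNRNPA3 (4.40, 7.14 and 6.26), HNRNPLL (4.19, 6.56 and 6.38) and SF3B1 (6.12 and 5.58 in replicates 2 and 3). Of 27 chaperone, translation and ribosome genes, 4 did, namely HSPD1, HSPE1, NCL (nucleolin, 6.72, 6.61 and 5.05) and RPL31 (3.28 and 4.47 in replicates 1 and 3). Of 23 lipid metabolism genes, 4 did, APOB, ACSL3 (an acyl-CoA synthetase, 6.08, 5.05 and 3.58), MOGAT1 and LPIN1 (a phosphatidate phosphatase, 5.42 and 4.55 in replicates 2 and 3). Of 21 stress, growth and immediate early genes (RHOB and CXCR4 among them), 3 did. They were NFE2L2, ID2 and EPAS1 (a hypoxia-inducible factor, 5.16 and 5.05 in replicates 2 and 3, in different regions).

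The other lists lay nearer the chromosome's background. Of 14 genes of RNA polymerases, general transcription factors and other regulators (CNOT9, NAB1 and SAP130 among them), POLR1B alone had peaks in at least 2 libraries. Of 18 mitochondrial energy genes, IDH1 alone did (5.17, 3.61 and 4.07 in replicates 1, 2 and 3). Of 31 homeobox and developmental genes, SP5 and LBX2 did, and none of the 9 HOXD genes was among those with a peak. A region of 3 libraries lay just outside the limit, 1097 bp from HOXD1, with folds of 6.31, 7.19 and 6.63. Of 25 lymphoid and cytokine genes, CCL20, a chemokine (4.20, 4.10 and 4.29), and IL1R1, the interleukin 1 receptor (5.09, 6.55 and 4.34), did. Of 25 neuron and muscle genes, with the longest median length of 117 kb, SCN1A did (4.49 and 4.44 in replicates 2 and 3). Together 28 of 222 listed genes (12.6%) had such peaks. The lists were chosen with earlier results known, so these counts are descriptions. Of 101 miRNA hairpins of chromosome 2, MIR4444-1 and MIR3128 lay within 1000 bp of a peak, both inside the NFE2L2 cluster, with highest folds of 4.78 and 4.41.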

How the data were processed

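Chromatin of V5-tagged TAF2 was measured by ChIP-seq in 3 V5 libraries, grouped by the treatment label, and 3 controls without a list used here. The genome build was GRCh38, per the submitters' processing notes. No source used here names the aligner, the caller, its threshold or the control of a list. Each deposited list gives a line per peak. Its fold is the authors' linear ratio over the background of their caller. The deposited -log10 p and -log10 q are the caller's own, and the deposited score was not used. No read counts are given, so depth is unknown and intervals (exact Clopper-Pearson, 95%) cover counting error only.

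Peaks overlapping by at least 1 bp were merged, and genes, starts and promoters came from RefSeq tables of GRCh38.p14. A peak at a gene end lies within 1000 bp of either annotated end, a peak at a start within 1000 bp of any listed start, and a promoter window runs from 250 bases before to 50 after a start. Not every gene has a listed start. Chromosome 2 was set against the other numbered chromosomes within each library with an exact two-sided sign-flip permutation test over 3 libraries, whose smallest p is 0.25. Members and lists were chosen with earlier results of these data known. Genes are named by rule: the 15 strongest regions of 3 libraries, 15 end genes, up to 4 members of a list, genes of dense clusters in at least 2 libraries and the 2 strongest regions of each library alone. Others (HNMT, the 3′ end genes, the APOB regions beyond its end, the region near HOXD1, FN1, CPS1 and other liver genes past the 4, clusters of 1 library) were named after their values were seen. Code was tested on simulated peaks. Python 3.11.15, numpy 2.4.6, pandas 2.3.3, scipy 1.17.1 and matplotlib 3.10.9 were used.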

Additional observations from a re-analysis of the deposited data

How the results depend on the processing

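The count of chromosome 2 regions was 184 with a -log10 q of at least 5, 212 with a fold of at least 5 and 195 from the strongest 1000 peaks of each list, and 263 to 351 with a replicate left out. Reproducible regions numbered 75, 71 and 81 under the same settings, 68 when 3 libraries were required, and 83 to 103 with a replicate left out (83 without replicate 2). Genes with an end peak numbered 19, 17 and 21, 17 when 3 libraries were required, 20 without dense clusters, and 21 to 24 with a replicate left out (21 without replicate 1 or 3).

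The share of peaks on chromosome 2 was 11.2% with a -log10 q of at least 3 or 5, 10.1% with a fold of at least 5, 11.5% from the strongest 1000 peaks, 10.1% without dense clusters and 9.88% without the EML4 locus. The difference in median fold percentile turned positive with a fold of at least 5 (1.21) and by -log10 q (2.26), and that between gene-end and other chromosome 2 peaks with a fold of at least 5 (5.14). The difference in gene-end share was -0.78 without dense clusters and -0.282 (without replicate 1) to 4.65 with a replicate left out. The difference in reproducible share was -1.14 with a fold of at least 5, -0.0864 without dense clusters and -0.108 (without replicate 1) to 2.46 with a replicate left out. Without the EML4 locus the ratio of p to q arm was 1.28, the p-arm share 44.4% and the dense difference -1.65. The causes were not tested. Another 99 recomputed values were counted as unchanged. For counts, shares and the arm ratio this meant that they stayed within a set limit of the main value. Differences only had to keep their direction, and did not always keep their size: gene-end strength was -1.83 with a -log10 q of at least 3 and -2.62 from the strongest 1000 peaks, the width difference 20.5 bp with a fold of at least 5, and the difference in gene-end share 0.141 with a window of 250 bp. The settings without the EML4 locus, and all those for arm ratio, dense clusters and gene-end strength, were chosen after seeing the data. No paired analysis was possible because the control libraries, which share the replicate numbers, entered no test. With 3 libraries no comparison could pass a threshold of 0.05.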
